A study of Mus musculus with 16 samples.

Results

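Immature medullary thymic epithelial cells (mTEC) from mice lacking the splicing regulator RBFOX1 in their thymic epithelium were compared with the same cells from control mice. The 4 libraries, out of 16 in the series, were taken by line, genotype and population as the labels give them, with earlier results of these data known, and comprised 2 tissue-specific knockout (tKO) and 2 control libraries. The tKO mice carried Rbfox1 lox/lox and Foxn1 wildtype/cre, and the controls carried Rbfox1 lox/lox and Foxn1 wildtype/wildtype, so both groups were homozygous for the lox allele while the Cre allele was present in the tKO alone. Because Cre sits in the Foxn1 locus, its expression follows the thymic epithelium, and the effects of the Cre allele and of losing Rbfox1 cannot be told apart within this line. The mice were labelled C57BL/6 and 4 to 6 weeks old, whereas the study's methods describe a mixed background. Each library came from 10000 sorted cells of 1 mouse, taken as EpCAM+ and UEA+ cells that were CD45- and Ly51- and had low MHCII. Replicate 2 of each group was a female and replicate 3 a male, and the study's methods describe sex-matched littermate controls without saying which mice shared a litter. Every p-value given here rests on 2 mice per group. The immature fit also held 4 libraries of the Rbfox2 line, 2 tKO and 2 control, which enter its estimate of the spread. The paper gives the tKO mice of that line as Rbfox2 lox/lox with Foxn1 cre/+. Mature mTEC, sorted from the same mice, are set beside the immature cells below. The spread was estimated over all groups of a fit, and in the fit with mouse as a block it was the spread within mice.

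RBFOX1 belongs to a small family of RNA-binding proteins that recognise GCAUG in transcripts, beside exons and in 3′ untranslated regions. Bound downstream of an exon these proteins tend to favour its inclusion, and cytoplasmic forms can alter the stability of messages they bind in the 3′ untranslated region. Medullary TEC present self-antigens to developing T cells: immature cells with low MHCII give rise to mature, AIRE-expressing cells, and a part of the medulla takes on programmes of peripheral cell types such as tuft cells.

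The feature that rose most clearly outside the Foxn1 locus, Gm23935, is a very short annotated RNA, and its sequence is shown because near-identical copies exist elsewhere in the genome, so that its counts depend on how reads were shared. Gm23935 (ENSMUSG00000076258, annotated as a miRNA gene of 57 bases) lies at chr16:11144125-11144181 on the plus strand in GENCODE M21 (build mm10), inside an intron of Zc3h7a, which is transcribed from the minus strand. Sequences were read from the GENCODE M21 transcripts, and the capital marks the base at which Gm24187 (chr13:9834469-9834525, minus strand) differs, G11A counted from the 5′ end.
Gm23935: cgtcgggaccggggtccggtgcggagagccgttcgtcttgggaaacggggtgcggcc
Gm24187: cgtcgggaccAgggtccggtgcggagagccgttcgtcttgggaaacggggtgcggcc
Of 6 annotated transcripts sharing at least 20 consecutive bases with Gm23935, itself included, 3 were identical over all 57 bases. The identical copies Gm24245 (chr4:139338304-139338360, plus strand) and Gm24270 (chr9:56223715-56223771, minus strand) held 0 counts in the 4 libraries. Gm24187 held 6 and 11 counts in the controls and 11 and 15 in the tKO. Only annotated transcripts were searched. Which copy, or which other RNA holding these bases, the reads came from therefore remains uncertain.

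From reads the authors had down-sampled to 10000000 in each library, 1908725 to 2430287 fragments per library were counted. Both controls had more counted fragments than both tKO libraries. Over 6943 well-expressed features the root-mean-square log2 difference was 0.257 between the controls, 0.264 between the tKO libraries, and 0.221 to 0.273 between a control and a tKO library, so the groups did not separate as wholes. The epithelial markers Epcam (730.0 to 769 CPM, which are TMM-scaled counts relative to the library total) and Krt5 (3185 to 3473 CPM in 3 libraries and 3554 CPM in tKO replicate 2) were high throughout. Thymocyte markers summed to 15.7 to 58.3 CPM, B cell markers to 28.5 to 32.8 CPM, myeloid and dendritic cell markers to 22.8 to 32.0 CPM and erythroid markers to 20.4 to 89.8 CPM, and Ptcra, which defines early thymocytes, was at 0 in all 4. Markers of stroma summed higher, to 2878 to 3450 CPM for smooth muscle and pericytes and 366 to 763 CPM for fibroblasts.

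The targeted gene was measured first. Rbfox1 was at 162 and 158 CPM in the controls and 149 and 152 CPM in the tKO, from 299 to 391 counts per library. The tKO values were both just under the control values, with a log2 fold change (tKO minus control, as throughout) of -0.09 (SE 0.111, edgeR adjusted p = 0.947). Counts over the whole gene do not show whether the floxed exons were lost, because the sources used here do not name these exons and a shortened message would still be counted. In mature mTEC of the same 4 mice, normalised separately, Rbfox1 was at 53.6 and 49.3 CPM in the controls and 34.7 and 30.5 CPM in the tKO (log2 fold change -0.66, SE 0.135, edgeR adjusted p = 0.242). The difference between the 2 populations was 0.57 on the log2 scale and did not pass the test (edgeR adjusted p = 0.209 with mouse as a block).

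No difference was detected in the paralogues. Rbfox2, the other family member of mTEC, was at 108 and 114 CPM in the controls and 100.3 and 118 CPM in the tKO, which overlapped (log2 fold change -0.03, SE 0.142). Rbfox3, the neuronal member, had 0 and 4 counts in the controls and 9 and 3 in the tKO, too few for a test. Rbfox2 was the 1 feature whose tKO effect differed between the lines at adjusted p: it fell by 1.69 on the log2 scale in immature mTEC of the Rbfox2 line, where it is the targeted gene (difference 1.66, edgeR adjusted p = 0.0393). That 1 feature was 0.00766% of those tested, and the count was 0 without tKO replicate 2, control replicate 3 or tKO replicate 3 and 6 without control replicate 2.

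**Figure D1:**
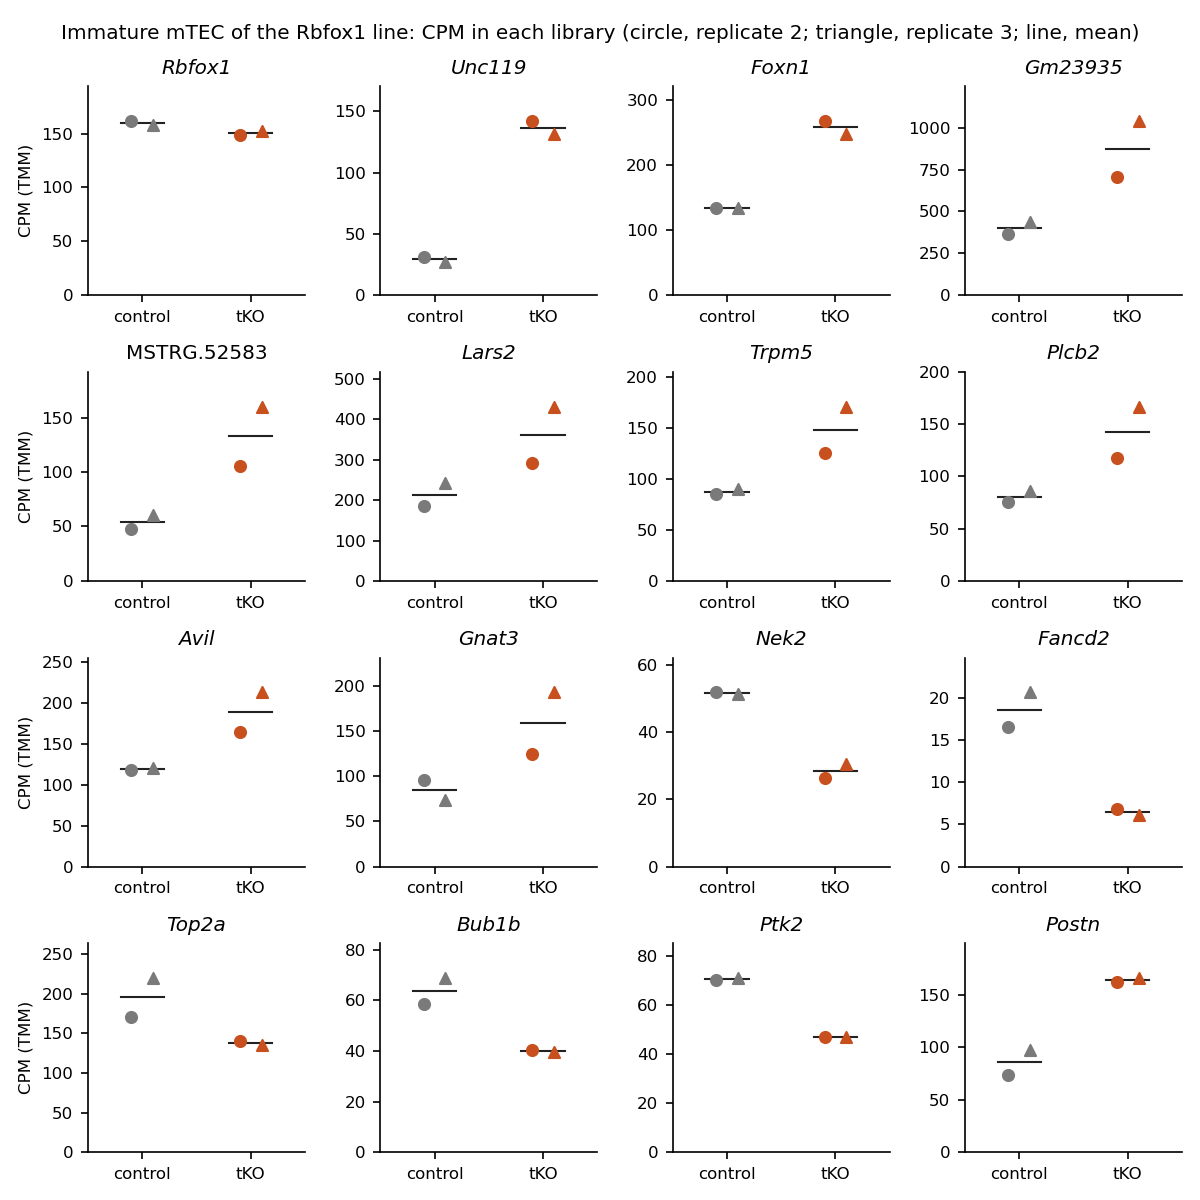
CPM of 16 features in each immature library of the Rbfox1 line (circle, replicate 2; triangle, replicate 3; horizontal line, mean of the group). Rbfox1 was nearly level, Unc119, Foxn1 and Gm23935 were higher in both tKO libraries, and for Gm23935, MSTRG.52583, Trpm5, Plcb2 and Gnat3 the highest value was that of tKO replicate 3.

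Genes beside Foxn1 were higher in the tKO, and Unc119 had the smallest adjusted p of all features tested. Unc119, a lipid-binding trafficking protein, was at 31.4 and 27.1 CPM in the controls and 142 and 131 CPM in the tKO, and rose by 2.22 on the log2 scale (SE 0.151, edgeR adjusted p = 9.17e-07). Foxn1 itself, the master transcription factor of TEC, was at 134 CPM in both controls and at 268 and 248 CPM in the tKO (log2 fold change 0.94, SE 0.118, edgeR adjusted p = 0.00153). Slc13a2os, an antisense transcript, was at 25.9 and 17.8 CPM against 92.1 and 71.7 CPM (log2 fold change 1.91, SE 0.202, edgeR adjusted p = 0.000308). The dicarboxylate transporter gene Slc13a2 was at 1.70 and 2.43 CPM against 7.29 and 9.66 CPM, a log2 fold change of 1.99 that did not pass the test (SE 0.611, edgeR adjusted p = 0.687). The groups did not overlap for any of these 4 genes. The strand setting of the counting is unknown, and reads of Slc13a2 and Slc13a2os cannot be told apart.

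The same 4 genes were higher in tKO mice of the Rbfox2 line, which carry the same Cre allele, with log2 fold changes of 1.69 for Unc119, 0.62 for Foxn1, 2.61 for Slc13a2os and 3.20 for Slc13a2. Within 500 kb of Foxn1, 28 other genes were tested, with log2 fold changes between -0.28 and 1.05. Of these, 2 had an unadjusted p under 0.05: the glycolytic enzyme gene Aldoc (1.05) and Sez6 (0.55). Of all 13060 tested features, 770 had one. The 4 genes were set aside from here on as following the Cre allele, and the lists described below hold none of them.

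**Figure D2:**
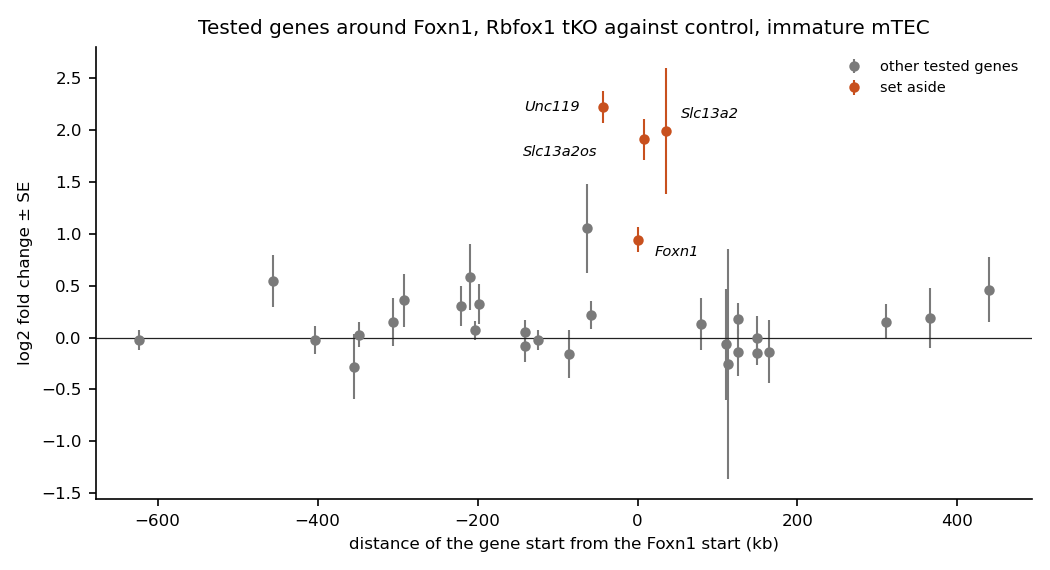
Log2 fold change (tKO minus control) with its standard error for each tested gene within 500 kb of Foxn1, by distance of the gene start from the Foxn1 start in kb. The 4 genes set aside (orange) lie between 0.94 and 2.22, and the 28 others (grey) between -0.28 and 1.05.

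Across 13060 features tested, 5 passed an adjusted p of 0.05 (0.0383% of those tested) and 4 of them also exceeded a fold of 2, which was the threshold for a call (0.0306%). All 5 were higher in the tKO. At adjusted p none was lower, whereas at an unadjusted p under 0.05 there were 425 higher (3.25%) and 345 lower features (2.64%), and DESeq2 also called 4. With no filter on low counts 27 features were called, and without 1 library in turn 4 to 11 were, the most without tKO replicate 2 and 8 without control replicate 3. After Unc119, Slc13a2os and Foxn1 were set aside, Gm23935 and an assembled locus were the features past adjusted p.

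Gm23935 was at 364 and 435 CPM in the controls and 706 and 1042 CPM in the tKO. Both tKO libraries lay above both controls, and it rose by 1.13 on the log2 scale (SE 0.139, edgeR adjusted p = 0.00153). Without 1 library in turn its log2 fold change ran from 0.82 to 1.38 with edgeR adjusted p from 3.43e-05 to 0.0343, and at 0.82, without tKO replicate 3, it was under the fold of 2 that a call needs. Zc3h7a, the zinc finger protein gene on the other strand, was nearly level at 80.7 and 86.6 CPM against 82.0 and 97.6 CPM (log2 fold change 0.10, SE 0.129). In immature mTEC of the Rbfox2 line Gm23935 was at 764 and 759.6 CPM in the controls and 1379 and 1399 CPM in the tKO (log2 fold change 0.87, SE 0.137, edgeR adjusted p = 0.0168). Controls of the Rbfox2 line thus stood at the level of the tKO of the Rbfox1 line. In mature mTEC of the Rbfox1 line it was at 356 and 379 CPM against 568 and 415 CPM (log2 fold change 0.42, SE 0.107), again without overlap. In each line the library totals of immature mTEC were lower in the tKO than in the controls, and those of the Rbfox2 controls (1740155 and 1973826) were lower than those of the Rbfox1 controls. These totals are the counted part of read sets down-sampled to the same number, and their part in the differences was not tested.

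The assembled locus MSTRG.52583, a transcript from the authors' own assembly that carries no gene name, was at 48.0 and 60.3 CPM in the controls and 106 and 160.1 CPM in the tKO. It rose by 1.29 on the log2 scale (SE 0.179, edgeR adjusted p = 0.00491). Without control replicate 2 its log2 fold change was 1.13 with an edgeR adjusted p of 0.0958, and without tKO replicate 3 it was 0.96 with an edgeR adjusted p of 0.126. Lars2, the mitochondrial leucyl-tRNA synthetase, was at 185 and 241 CPM against 291 and 432 CPM, short of the threshold (log2 fold change 0.76, SE 0.161, edgeR adjusted p = 0.241). With the replicate block its edgeR adjusted p was 0.0122, and without tKO replicate 2 it was 0.0110. The mitochondrial ribosomal RNAs mt-Rnr1 and mt-Rnr2 had log2 fold changes of 0.36 (SE 0.114) and 0.33 (SE 0.113). Of the 37 genes of the mitochondrial genome 25 held no count and 8 were tested. Only mt-Rnr1 and mt-Rnr2 had an unadjusted p under 0.05, where 3.25% of all tested features were higher and 2.64% lower. Of the 8 tested genes 5 had a positive log2 fold change and 3 a negative one. A link between Lars2 and these RNAs was not tested.

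**Figure D3:**
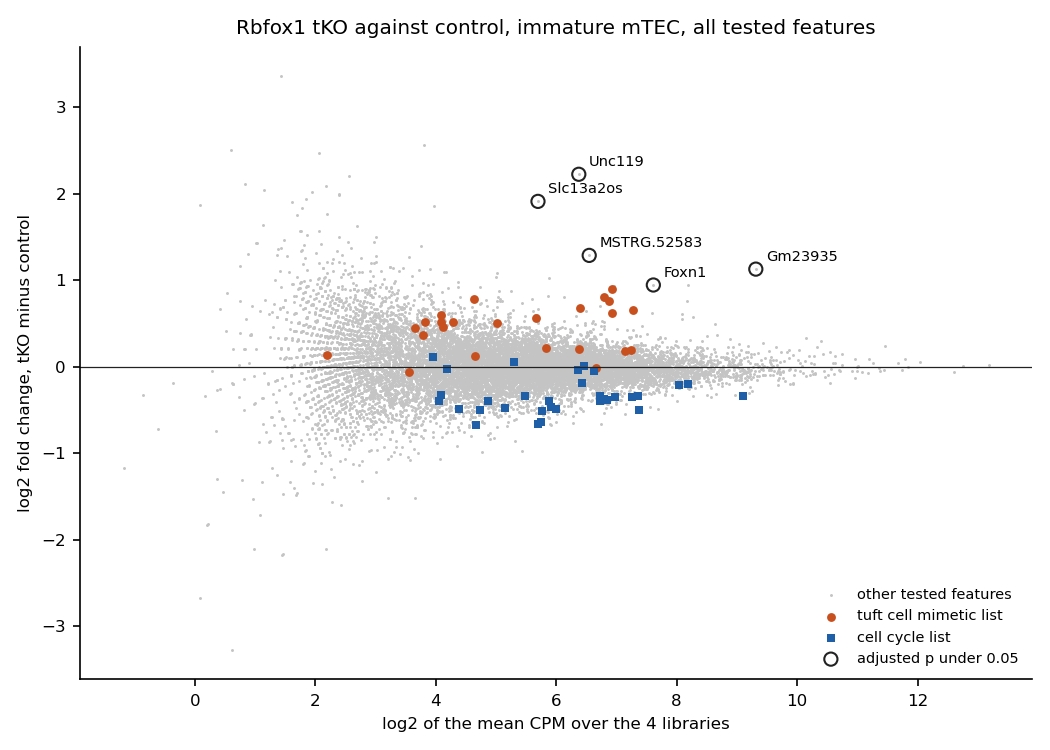
Log2 fold change (tKO minus control) of the 13060 tested features against the log2 of their mean CPM over the 4 libraries. The 5 features past an adjusted p of 0.05 are ringed and all lie above 0, most tested members of the tuft cell list (orange) lie above 0, and most of the cell cycle list (blue) lie below 0.

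Genes of tuft cells, chemosensory epithelial cells that signal through taste receptors, stood together on the higher side. Of 26 genes in the list 24 were tested, 10 had an unadjusted p under 0.05 and a higher level in the tKO, none had one and a lower level, and none passed the adjusted threshold. Over all tested features 3.25% were higher and 2.64% lower at that p. Their median log2 fold change was 0.51 against 0.0020 over all tested features, and 22 of 24 were positive. Both tKO libraries exceeded both controls for 16 of the 24, where 17.9% of all tested features did so and 17.4% lay below both controls. Summed over the list, expression was 1240 and 1280 CPM in the controls and 1519 and 2001 CPM in the tKO, with the highest sum in tKO replicate 3. In the Rbfox2 line the sums were 1918 and 2260 CPM in the controls and 2278 and 2016 CPM in the tKO, so all but 1 of those libraries lay above tKO replicate 3 and the Rbfox1 controls were the lowest of the 8 immature libraries. In bulk RNA a change in the number of cells of a type and a change in RNA per cell cannot be told apart.

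Several of the tuft cell members at unadjusted p under 0.05 are named here with their values. Trpm5, the cation channel that depolarises tuft cells, was at 85.4 and 89.8 CPM in the controls and 126 and 171 CPM in the tKO (log2 fold change 0.76, SE 0.163, edgeR adjusted p = 0.241). The phospholipase upstream of it, Plcb2, was at 75.6 and 85.8 CPM against 118 and 167 CPM (log2 fold change 0.81, SE 0.181). Gnat3, gustducin, was at 95.5 and 73.2 CPM against 124 and 193 CPM (log2 fold change 0.90, SE 0.240). In all of these tKO replicate 3 was the highest library. Trpm5, Plcb2 and Avil, which is given next, were among the genes picked for groups that did not overlap. The actin-bundling protein gene Avil was at 118 and 121 CPM against 165 and 213 CPM (log2 fold change 0.66, SE 0.151). The leukotriene enzyme gene Alox5 (0.56), the G protein subunit gene Gnb3 (0.68), the G protein regulator gene Rgs13 (0.78), Lrmp (0.62) and the kinase gene Bmx (0.50) were among the remainder.

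The transcription factor that specifies tuft cells did not separate the groups. Pou2f3 was at 61.1 and 43.7 CPM in the controls and 48.3 and 73.7 CPM in the tKO (log2 fold change 0.21, SE 0.195), and Dclk1, a microtubule kinase widely used as a tuft marker, had a log2 fold change of 0.18 (SE 0.133). The list members Gfi1b and Cd300lf were too low to test. Promoters from RefSeq (GRCm38.p6, 250 bases before to 50 after the start) matched 19 of the 26 genes, and the octamer ATGCAAAT, which POU domain factors bind, occurred on either strand in 2 of 23 of these promoters (8.7%) against 1.74% of 32841 promoters. Such shares would be the same whatever the tKO did.

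The tuft cell list varied with the library left out. Without tKO replicate 3 its median log2 fold change was 0.22 and 5 members were higher at unadjusted p under 0.05, and without tKO replicate 2 they were 0.72 and 14. In mature mTEC of the same mice 6 of the 23 members tested in both populations were higher at unadjusted p under 0.05 and none lower (median 0.21). Of the 12873 features tested in both, 241 were higher and 164 lower at that p. Of all 18021 features tested in mature mTEC 1.98% were higher and 1.37% lower. In immature mTEC of the Rbfox2 line 2 were higher and 1 lower (median 0.05), where 3.61% of features were higher and 2.63% lower. The difference between the lines had an unadjusted p under 0.05 for 9 of the 24 members, where 4.43% of features had one, and for none at adjusted p. Between the 2 populations no member had an unadjusted p under 0.05 in the fit without a mouse block, where 3.57% of the 17022 features of that fit had one.

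Cell cycle genes lay on the lower side. Of 32 tested of 33, 15 had an unadjusted p under 0.05 and a lower level in the tKO, none a higher one, and none passed the adjusted threshold. Among all tested features 2.64% were lower and 3.25% higher at that p. The median log2 fold change was -0.36, 29 were negative, and for 19 both tKO libraries lay below both controls, where 17.4% of all features did so. Their summed expression was 3187 and 3783 CPM in the controls and 2846 and 2756 CPM in the tKO, so control replicate 3 was the highest library. All 4 immature libraries of the Rbfox2 line lay below these, at 2012 to 2271 CPM. In mature mTEC of the Rbfox1 line 2 members were lower at unadjusted p under 0.05 and none higher (median -0.16), where 1.37% of features were lower and 1.98% higher. In immature mTEC of the Rbfox2 line 2 were higher and none lower (median -0.07), where 3.61% of features were higher and 2.63% lower. Without control replicate 3 the median log2 fold change was -0.17 and 3 members were lower at unadjusted p under 0.05, without tKO replicate 3 there were 6 such members, and DESeq2 gave 4.

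**Figure D4:**
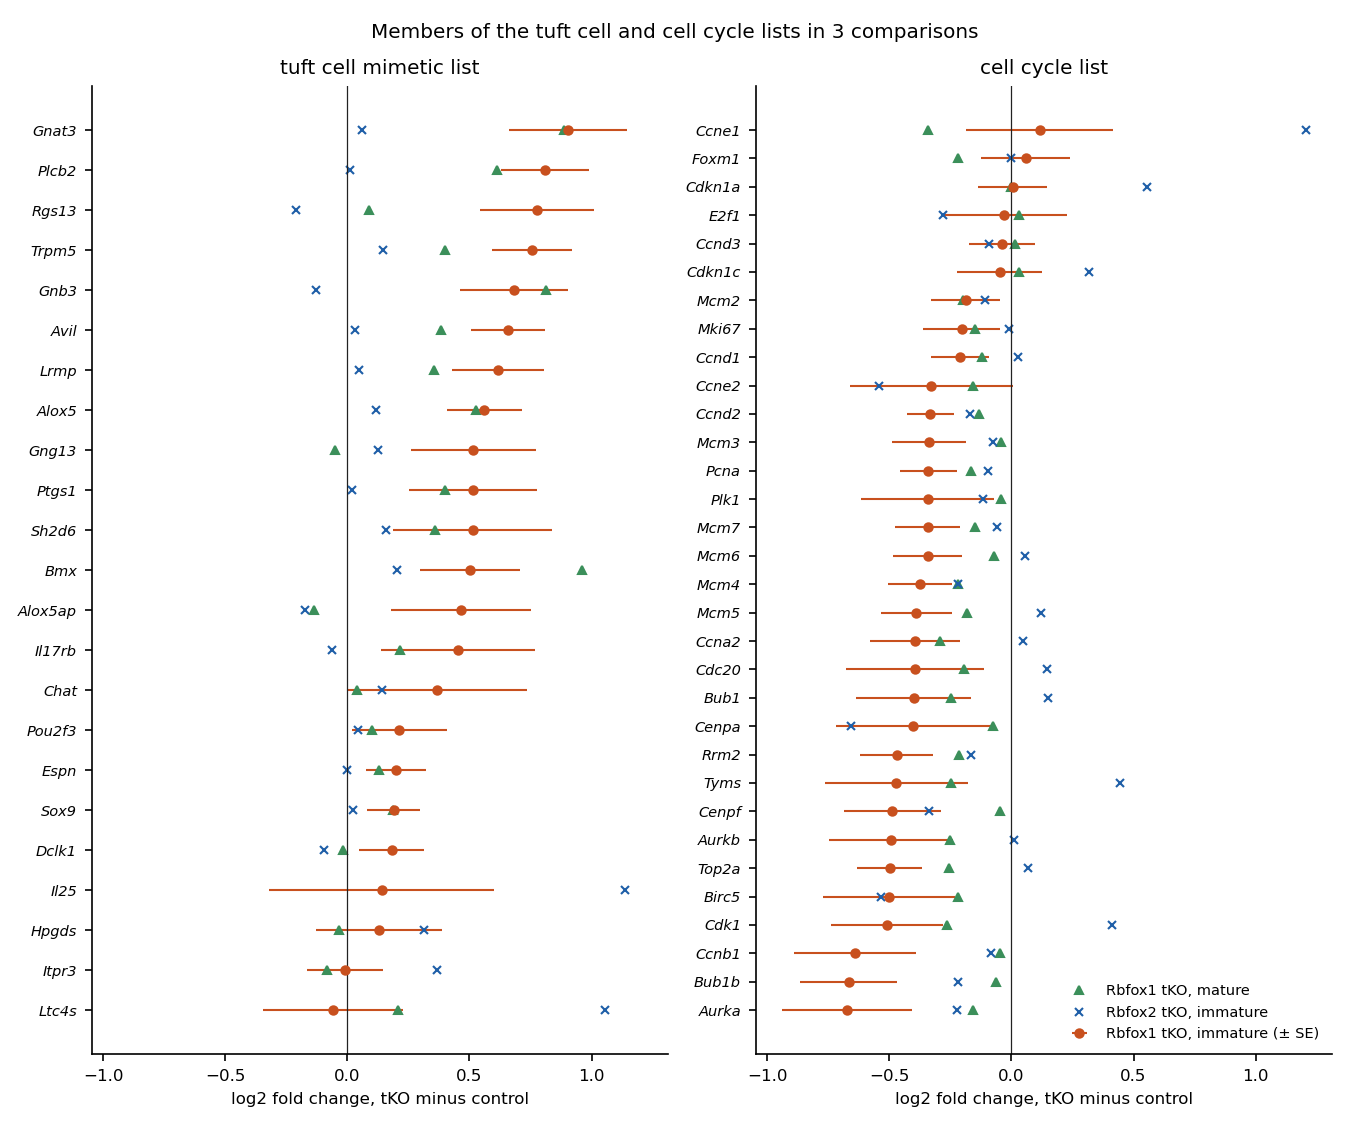
Log2 fold change (tKO minus control) of tested members of the tuft cell list (left, 1 member not drawn) and the cell cycle list (right) in immature mTEC of the Rbfox1 line (orange, with standard error), mature mTEC of the same mice (green) and immature mTEC of the Rbfox2 line (blue). In immature mTEC of the Rbfox1 line most tuft cell members lie above 0 and 29 of 32 cell cycle members below 0, whereas the Rbfox2 line scatters on both sides of 0.

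DNA replication and mitosis were both represented. Top2a, the topoisomerase that untangles replicated chromosomes, was at 171 and 219.7 CPM in the controls and 141 and 136 CPM in the tKO (log2 fold change -0.50, SE 0.134, edgeR adjusted p = 0.513). Bub1b, a kinase of the spindle checkpoint, was at 58.6 and 68.8 CPM against 40.6 and 39.6 CPM (log2 fold change -0.67, SE 0.198). Cdk1, the mitotic kinase, was at 50.5 and 76.5 CPM against 43.8 and 45.7 CPM (log2 fold change -0.51, SE 0.229). Top2a was picked from genes whose groups did not overlap, and for Bub1b and Cdk1 the tKO libraries also lay under both controls. The mitotic kinase Aurka (-0.67), the cyclin partner of CDK1, Ccnb1 (-0.64), the ribonucleotide reductase subunit Rrm2 (-0.47), the replication clamp Pcna (-0.34) and Ccnd2 (-0.33), a G1 cyclin, were among the other members at unadjusted p under 0.05. The proliferation marker Mki67 was at 274 and 350.1 CPM against 249 and 294 CPM (log2 fold change -0.20), with overlap, and Ccnb2 was at 0 in all 4 libraries.

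Nek2, Fancd2, Kif18b, Usp1 and Uhrf1 are not in the list but were among the 15 genes with the smallest p on the lower side whose groups did not overlap. None of them passed the adjusted threshold. Nek2, a centrosome kinase, was at 51.8 and 51.4 CPM in the controls and 26.4 and 30.5 CPM in the tKO (log2 fold change -0.86, SE 0.184, edgeR adjusted p = 0.241). Fancd2, of the Fanconi anaemia repair pathway, was at 16.6 and 20.6 CPM against 6.84 and 6.10 CPM (log2 fold change -1.51, SE 0.324, edgeR adjusted p = 0.241). Kif18b, a mitotic kinesin, had a log2 fold change of -1.07 (SE 0.274), and Usp1 and Uhrf1, a deubiquitinase that acts on FANCD2 and a factor that maintains DNA methylation at replication, had -0.57 and -0.54.

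The promoters of the cell cycle genes are shown for 2 members because genes of this kind are known for a shared promoter element. Sequences are from RefSeq (GRCm38.p6), 5′ to 3′ on the strand of the gene, with CCAAT, the element bound by NF-Y, or its reverse complement ATTGG in capitals. Top2a is the promoter at chr11:99024140-99024439 (minus strand, 6 matches) and Cdk1 that at chr10:69352863-69353162 (minus strand, 3 matches). The promoter of Bub1b was also read, held 1 match and is not shown.
Top2a: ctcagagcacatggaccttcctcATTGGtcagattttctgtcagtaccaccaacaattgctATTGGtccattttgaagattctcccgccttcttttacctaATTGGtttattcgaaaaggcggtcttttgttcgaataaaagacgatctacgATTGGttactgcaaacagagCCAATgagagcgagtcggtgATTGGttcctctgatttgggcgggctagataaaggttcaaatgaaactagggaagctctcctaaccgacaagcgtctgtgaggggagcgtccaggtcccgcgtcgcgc
Cdk1: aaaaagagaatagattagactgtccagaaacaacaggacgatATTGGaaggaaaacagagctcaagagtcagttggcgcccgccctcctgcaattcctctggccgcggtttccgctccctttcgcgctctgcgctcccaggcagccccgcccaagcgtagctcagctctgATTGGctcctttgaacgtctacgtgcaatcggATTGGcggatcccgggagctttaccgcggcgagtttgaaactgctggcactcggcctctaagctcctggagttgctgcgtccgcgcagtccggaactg
Of 33 genes 25 matched, with 28 promoters, and CCAAT occurred on either strand in 21 of them (75%) against 12288 of 32841 promoters (37.4%). TTTGAA, part of the element found in promoters of mitotic genes, occurred in 11 (39.3%) against 17.9%. In the tuft cell promoters CCAAT occurred in 7 of 23 (30.4%) and TTTGAA in 5 (21.7%), and none of the motifs contains another. These matches describe the letters in the window and would be the same whatever the tKO did, and binding was not measured. The 32841 promoters were not limited to tested genes.

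Enzymes of cholesterol synthesis were examined as a list after the values of Cyp51 and Lss had been seen, so their count is a description. Both were among the 15 genes with the smallest p on the lower side whose groups did not overlap. Of 20 genes 19 were tested, 5 were lower at unadjusted p under 0.05 and none higher, with a median log2 fold change of -0.22. The shares over all tested features were 2.64% lower and 3.25% higher. Lss, which closes the sterol ring, was at 31.0 and 48.6 CPM in the controls and 24.6 and 20.3 CPM in the tKO (log2 fold change -0.82, SE 0.226, edgeR adjusted p = 0.536). Cyp51 (-0.66), Sqle (-0.53) and Hmgcs1 (-0.48) were also among them. In mature mTEC of the same mice 7 of 19 were lower at unadjusted p under 0.05 (median -0.26), where 1.37% of features were. In immature mTEC of the Rbfox2 line none was (median -0.03), where 2.63% of features were. The summed level was 784 and 1037 CPM in the controls and 769 and 644 CPM in the tKO, so tKO replicate 2 lay close to control replicate 2. Without control replicate 3 the count lower was 1, without tKO replicate 3 it was 3, and without control replicate 2 it was 9.

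Ptk2, focal adhesion kinase, which relays integrin signals, was lower in both lines and both populations. It was at 70.1 and 70.8 CPM in the controls and 46.9 and 46.8 CPM in the tKO (log2 fold change -0.59, SE 0.138, edgeR adjusted p = 0.305). In immature mTEC of the Rbfox2 line it fell, from 78.5 and 75.1 CPM to 36.2 and 41.1 CPM (log2 fold change -0.99, SE 0.156, edgeR adjusted p = 0.0168). Mature mTEC of the Rbfox1 line had 51.8 and 51.3 CPM against 28.3 and 32.4 CPM, and those of the Rbfox2 line 52.1 and 46.6 CPM against 29.2 and 22.6 CPM. Non-overlap was a condition for naming Ptk2 in the first of these 4 comparisons, and in the others both tKO libraries also lay below both controls. The tKO mice of each line carry the same Cre allele. The integrins, laminins and collagens of epithelium had 0 of 25 tested members higher and 1 lower at unadjusted p under 0.05 (Lamb2, -0.40). Shares over all features were 3.25% higher and 2.64% lower.

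Genes of RNA splicing were described because RBFOX1 is itself a splicing regulator. Of the core and general splicing factors 41 of 42 were tested, 7 were lower at unadjusted p under 0.05 and none higher, and 35 were negative (median -0.12). Shares over all tested features were 2.64% lower and 3.25% higher at that p. Srsf2, an SR protein picked from genes whose groups did not overlap, was at 287 and 298 CPM in the controls and 208 and 238 CPM in the tKO (log2 fold change -0.39, SE 0.107, edgeR adjusted p = 0.513). Celf1 (-0.39), Hnrnpd (-0.33) and Srsf10 (-0.35) followed. The count was 1 without tKO replicate 2, 2 without control replicate 3, 4 without tKO replicate 3, and 4 with DESeq2. Of the tissue-restricted splicing regulators 1 of 20 tested was higher at unadjusted p under 0.05, the neuronal gene Celf3 (0.82, SE 0.382), and none lower.

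Genes whose exons are known RBFOX substrates showed little movement in their total counts. Of 20 tested of 21, 2 were higher at unadjusted p under 0.05 and none lower (median 0.05), where 3.25% of all features were higher. The 2 members were Tpm1, a tropomyosin gene, at 315 and 296 CPM against 413 and 339 CPM (log2 fold change 0.30, SE 0.106), and the calcium channel gene Cacna1c (0.74, SE 0.351). Exon usage was not analysed here, and gene counts carry no information on it. Grouping 11983 genes by the number of TGCATG motifs, the DNA letters of a preferred RBFOX site, in the 3′ untranslated region gave median log2 fold changes of -0.0006 for the 7601 genes with 0 motifs, -0.0100 for the 2680 with 1, -0.0231 for the 1031 with 2, and 0.0079 for the 671 with 3 or more. The share higher at unadjusted p under 0.05 lay between 2.52% and 3.03% in these classes and the share lower between 2.60% and 3.13%. Untranslated regions lengthen with the number of motifs, from a median of 792 bases to one of 3998 bases.

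Immediate early and dissociation response genes, which rise while tissue is being digested, were partly higher. Of 27 tested of 28, 7 were higher at unadjusted p under 0.05 and none lower (median 0.18), where 3.25% of all features were higher. Hspa1a, an inducible chaperone gene, was at 118 and 185 CPM in the controls and 218 and 250.1 CPM in the tKO (log2 fold change 0.62, SE 0.159, edgeR adjusted p = 0.442). Hspa1b had a log2 fold change of 0.49, the growth arrest gene Btg2 0.47, and the AP-1 family genes Atf3 and Fos 0.43 and 0.35. The Rbfox2 line gave 9 higher (median 0.21), where 3.61% of features were higher. Mature mTEC of the Rbfox1 line gave 17 of 27 higher (median 0.29), where 1.98% of features were. The count was 3 without control replicate 2, 4 without tKO replicate 3, and 4 with DESeq2. Their part in the results above was not tested.

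Fibroblast markers stood higher in the tKO libraries and in 1 of the controls. All 8 were tested, 3 were higher at unadjusted p under 0.05 (Col1a2, Col6a3 and Dcn), and the median log2 fold change was 0.42. For all tested features the shares were 3.25% higher and 2.64% lower. They summed to 366 and 643 CPM in the controls and 763 and 630.3 CPM in the tKO, which overlapped, and Col1a2 was at 47.6 and 92.3 CPM against 119.9 and 99.1 CPM. Without control replicate 2 none of the 8 was higher at unadjusted p under 0.05, and without control replicate 3 there were 6. The median was 0.12 and 0.91 in these fits, and without tKO replicate 2 the count was 0 and the median 0.28. DESeq2 gave 1 such marker and the fit without a filter on low counts 5. Beside them, the matricellular gene Postn was at 73.9 and 97.5 CPM against 162 and 166 CPM (log2 fold change 0.93, SE 0.213, edgeR adjusted p = 0.292). The stromal metalloproteinase gene Mmp3 was at 1.70 and 2.43 CPM against 12.3 and 7.12 CPM (log2 fold change 2.21, SE 0.471, edgeR adjusted p = 0.241). Both genes were picked from those whose groups did not overlap, and the part of fibroblast RNA in their values was not tested. Endothelial markers summed to 64.1 and 180.1 CPM in the controls and 112 and 71.7 CPM in the tKO, with 1 of 8 lower at unadjusted p under 0.05 (Emcn). Of the smooth muscle and pericyte markers 1 of 7 tested was lower (Cspg4). No marker of thymocytes, B cells, myeloid cells or erythroid cells had an unadjusted p under 0.05 among the 2, 3, 2 and 4 tested.

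**Figure D5:**
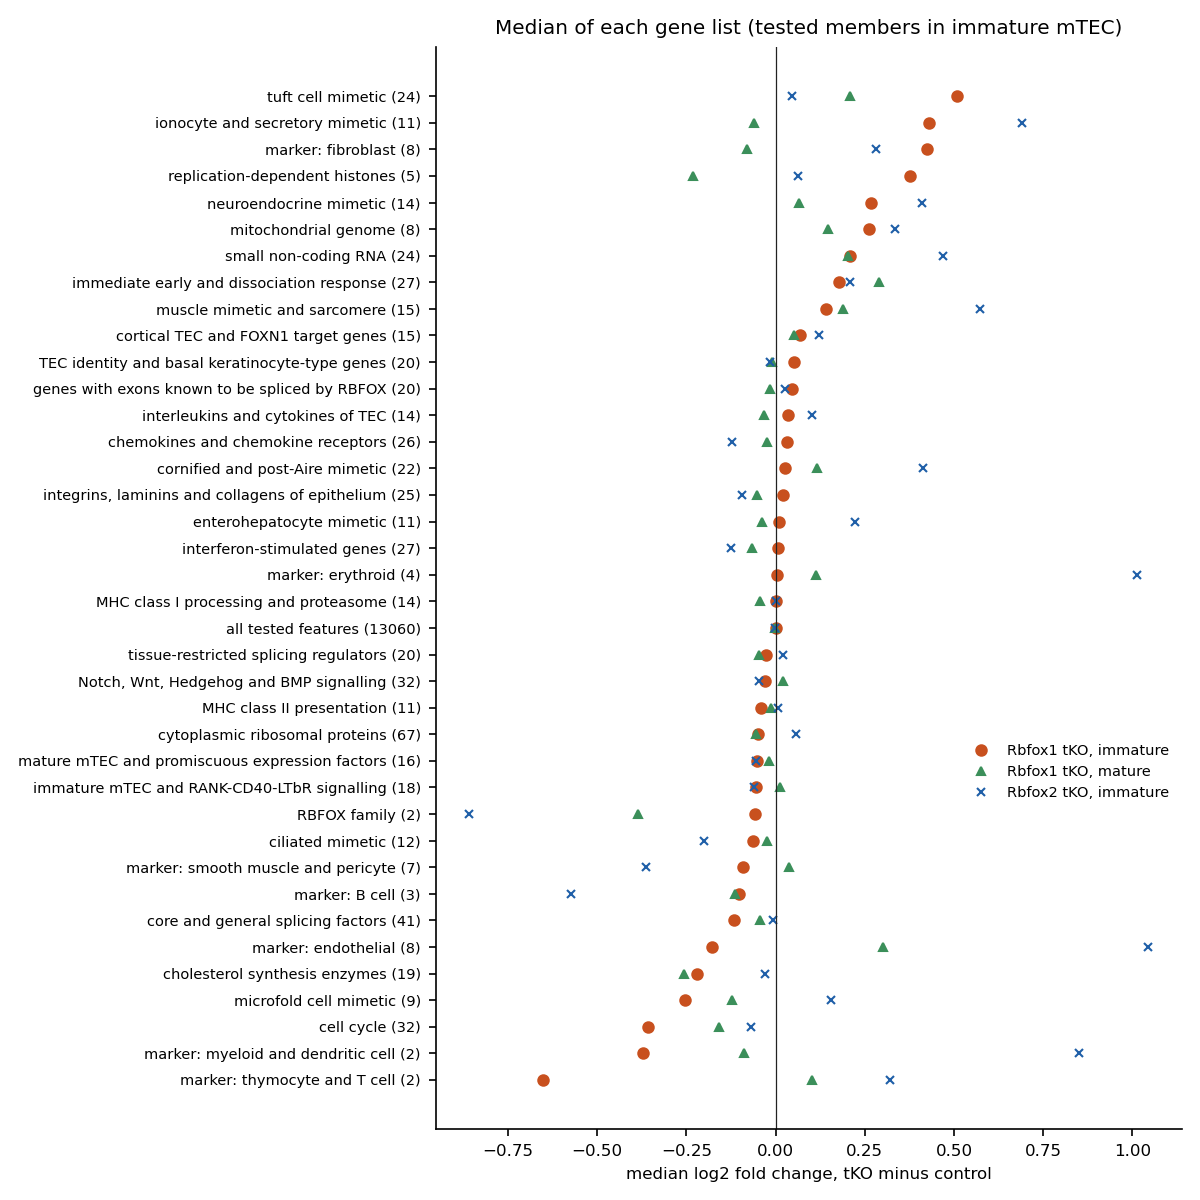
Median log2 fold change (tKO minus control) over the tested members of each gene list, with their number in brackets, in immature mTEC of the Rbfox1 line (orange), mature mTEC of the same mice (green) and immature mTEC of the Rbfox2 line (blue). The tuft cell list has the highest median in immature mTEC of the Rbfox1 line (0.51), and among lists with over 2 tested members the cell cycle list has the lowest (-0.36).

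The remaining genes on the higher side, picked for the smallest p among those whose groups did not overlap, were short of the threshold. Pik3r5, a regulatory subunit of a leukocyte-type phosphoinositide kinase, was at 38.2 and 45.7 CPM in the controls and 67.5 and 80.8 CPM in the tKO (log2 fold change 0.81, SE 0.164, edgeR adjusted p = 0.241). Cadps2, which primes dense-core vesicles for release, was at 51.4 and 26.3 CPM against 74.8 and 82.3 CPM (log2 fold change 1.02, SE 0.217). Flg2, a gene of cornified epithelium, was at 6.79 and 1.21 CPM against 12.3 and 35.6 CPM (log2 fold change 2.56, SE 0.603), so that tKO replicate 3 carried most of it. Others were Mctp1 (0.78), thrombomodulin, Thbd (0.64), the calcium pump gene Atp2a3 (0.55) and Cited2 (0.53), a transcriptional co-regulator. On the lower side, picked in the same way, they were Rab32 (-0.51), a small GTPase, Sprr2a1 (-0.65), a cornified envelope protein, Pa2g4 (-0.49), Mgat4a (-0.49), a glycosyltransferase, and the connexin gene Gja4 (-0.59).

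Genes that define mTEC and their maturation differed little. Aire was at 212 and 295 CPM in the controls and 255 and 210.4 CPM in the tKO, with overlap (log2 fold change -0.12, SE 0.194), and Fezf2, the other main activator of tissue-restricted genes, had a log2 fold change of -0.06. None of 16 tested mature mTEC and promiscuous expression factors had an unadjusted p under 0.05 (median -0.05). The counts in this paragraph stand beside 3.25% higher and 2.64% lower over all tested features. Among 18 tested genes of immature mTEC and RANK, CD40 and LTbR signalling, 2 were lower: Tnfrsf11b, the decoy receptor that binds RANK ligand, at 72.2 and 81.7 CPM against 44.2 and 65.6 CPM (log2 fold change -0.50, SE 0.180), and Tnfrsf11a, which encodes RANK itself (-0.23, SE 0.102). Of 20 tested TEC identity and basal keratinocyte-type genes 1 was higher, the transcription factor gene Pax9 (0.27). Neither MHC class II presentation (11 tested, median -0.04) nor MHC class I processing and proteasome genes (14 tested, median 0.0024) held a member at unadjusted p under 0.05. Of 15 tested cortical TEC and FOXN1 target genes 2 were higher, the scavenging receptor gene Ackr4 at 27.6 and 32.0 CPM against 43.3 and 43.2 CPM (log2 fold change 0.54, SE 0.165) and the Notch ligand gene Dll4 (0.86, SE 0.348).

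Other mimetic programmes were examined in the same way, beside shares of 3.25% higher and 2.64% lower over all tested features. Cornified and post-Aire (22 tested, median 0.03) and ciliated genes (12 tested, median -0.06) had no member at unadjusted p under 0.05. Ionocyte and secretory genes had a median of 0.43 over 11 tested, all positive, with 1 higher, the lectin gene Reg3g, which was at 192 and 239 CPM in the controls and 206 and 454 CPM in the tKO. Neuroendocrine genes had 2 higher (Stxbp5l and Cacna1a) and 1 lower (Insm1) of 14, muscle and sarcomere genes 1 higher of 15 (Tnnt2), microfold cell genes 1 lower of 9 (Tnfrsf11b) and enterohepatocyte genes 1 lower of 11. A test of these lists against the tuft cell list was not made.

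Signalling and housekeeping lists held few members at unadjusted p under 0.05, where 3.25% of all tested features were higher and 2.64% lower. Of the Notch, Wnt, Hedgehog and BMP genes 3 of 32 tested were higher and 1 lower at unadjusted p under 0.05, of interferon-stimulated genes 2 of 27 were higher (Oas2 and Mx2), of chemokines and their receptors 1 of 26 (Ackr4), and of interleukins and cytokines 1 of 14, Tgfb3 (0.38). No cytoplasmic ribosomal protein gene among 67 tested and no replication-dependent histone gene among 5 tested had one, with medians of -0.05 and 0.38. Small non-coding RNAs had 24 tested members, of which 2 were higher, Gm23935 among them.

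The tKO effect was also set against that in mature mTEC of the same 4 mice, with mouse as a block. In that fit 19 of 17022 features (0.112%) differed between the populations at an adjusted p under 0.05, and in the fit without the block and in DESeq2 none did. Postn was the second of these by p: its log2 fold change was 1.19 higher in immature than in mature mTEC. Nek2 and Fancd2 were among them on the lower side, at -0.99 and -1.46. Counts of some of the 19 were uneven between the 2 libraries of a group: the pancreatic enzyme gene Ctrb1 had 0 and 9 counts in immature controls and 108 and 2 in immature tKO libraries, and Ngp, a neutrophil granule gene, had 0 and 24 against 0 and 0. Without both libraries of tKO replicate 3 the count was 3, and without both of control replicate 3 it was 35.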

How the data were processed

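RNA-seq of sorted mTEC was deposited by the authors as 1 table of counts for 16 libraries. Per the submitters' processing notes and the study's methods, reads were aligned to mm10 with HISAT2 2.1.0, duplicates were removed with Picard 2.10.9, reads of immature mTEC were down-sampled to 10000000, and fragments were counted over an Ensembl-based transcriptome extended with assembled loci with featureCounts 1.6.0. The sources used here do not give the strand setting. All 16 count columns were mapped to samples, and 0 columns were left unused.

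From these counts, features passing filterByExpr of edgeR 4.0.16 (R 4.3.3) at a minimum count of 10 were scaled by TMM and tested with the quasi-likelihood test in 1 fit of all 8 immature libraries with 4 group means, which share 1 estimate of the spread. Rows without a gene name (assembled loci, 0.374 to 0.535% of counts in immature libraries) were kept as features. P-values were adjusted by Benjamini-Hochberg over all tested features, and a call needed an adjusted p under 0.05 and a fold over 2. The standard error is the log2 fold change divided by the square root of the test statistic. CPM are TMM-scaled. Mature mTEC were fitted separately, and the populations were compared in 1 fit of the Rbfox1 line with mouse as a block. The immature, line and population comparisons were also run on simulated counts with known folds. Those counts held no effect shared by the 2 libraries of a mouse, so they cannot check the mouse block.

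The 4 libraries, the gene lists and the tests were chosen with earlier results of these data known. Named genes are the RBFOX family, the Foxn1 neighbours, all features past adjusted p, the 15 genes with the smallest p in each direction whose groups did not overlap, and up to 4 members per list with the smallest p, and a few further list members. The cholesterol list, and the genes Pou2f3, Dclk1 and Mki67, were added after values had been seen. Genes that the rule names but the text does not are not reported here. Sequences came from GENCODE M21 and RefSeq (GRCm38.p6). Alternatives were other scalings and filters, DESeq2 1.42.0, a replicate block, sex as a covariate, other sets of libraries and leaving out each library. Python 3.11.15 drew the figures.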

Additional observations from a re-analysis of the deposited data

Results flagged for a closer look

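The effect of the tKO on Rbfox2 differed between the lines, at -0.03 in the Rbfox1 line and -1.69 in the Rbfox2 line on the log2 scale (difference 1.66, edgeR adjusted p = 0.0393). No other feature had an adjusted p under 0.05 for that difference.

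The effect of the Rbfox1 tKO differed between immature and mature mTEC at an adjusted p under 0.05 for 19 features in the edgeR fit with mouse as a block, and for none without the block or with DESeq2. Differences are log2, immature minus mature. On the higher side were Postn (1.19), Mmp3 (3.46), Col6a3 (0.999) and Col1a2 (0.77), all of connective tissue, with Lpl (1.001), Fat1 (0.48), D130040H23Rik (0.96), Gm23935 (0.70), MSTRG.52583 (0.78), Reg3g (0.63) and Dpysl5 (3.47). On the lower side were Nek2 (-0.99), Fancd2 (-1.46), Cst6 (-0.83), Phlpp1 (-0.91) and MSTRG.6461 (-1.14).

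Immature counts were low or uneven for several of these features, and are given in the order control replicates 2 and 3 and tKO replicates 2 and 3. Ctrb1 (3.68) had 0, 9, 108 and 2 counts. Jchain (8.39) had 0, 0, 1 and 50 counts, and Ngp (-7.02) had 0, 24, 0 and 0. Dpysl5 had 0, 2, 13 and 7 counts, Mmp3 had 4, 6, 27 and 14, and MSTRG.6461 had 46, 132, 50 and 27. Where a group of immature libraries held no count, as for Jchain in the controls and Ngp in the tKO, the fitted difference depends on the prior count and is no bound.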

How the results depend on the processing

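With no filter on low counts 27 features were called in place of 4, 24 in place of 2 outside the Foxn1 neighbours, 58 in place of 5 passed adjusted p, 13 in place of 0 of them lower, and 33 in place of 1 differed between the lines. With all 16 libraries in the fit 8 passed adjusted p, 2 of them lower (Nek2 and Fancd2), 3 were called outside the neighbours, and 2 differed between the lines. With DESeq2 the lower cell cycle genes were 4 in place of 15, the higher immediate early genes 4 in place of 7, the lower core splicing factors 4 in place of 7, the higher fibroblast markers 1 in place of 3 (5 with no filter), and 2 features differed between the lines. The difference between populations, 19 features, fell to 7 with library totals as scaling, 1 when each library had to hold 10 counts or more, and 0 with DESeq2 or without the mouse block, and the cause was not tested. The difference between lines could not be run with only the 4 libraries of the Rbfox1 line.

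Leaving out 1 library in turn, where the lone sample is assumed to vary like the other groups, gave 4 to 11 calls, 1 to 9 outside the neighbours, 5 to 12 features past adjusted p, 5 to 14 tuft cell genes, 3 to 19 cell cycle genes, 3 to 10 immediate early genes, 1 to 8 core splicing factors, 0 to 6 fibroblast markers, 1 to 9 cholesterol synthesis genes and 0 to 6 features differing between the lines. Leaving out both libraries of a mouse, an alternative chosen after seeing the data, gave 3 to 35 features differing between populations. Small values changed sign in these fits: Rbfox2 ranged from -0.15 to 0.086 (0.0092 without control replicate 3), Aire from -0.34 to 0.14 (0.0089 without tKO replicate 3) and Pou2f3 from -0.11 to 0.49, with -0.015 without control replicate 3. Over 70 named features and 13 settings, 905 values were computed, of which 6 reversed, 2 lost the threshold (both MSTRG.52583) and 34 gained it, among them Trpm5, Plcb2, Gnat3 and Avil with no filter. Libraries of 1908725 to 2430287 counts and 2 mice per group limit what can be called.

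Same-numbered mice share their sex, and no label says that they share a litter. Their deviations from the group means correlated at 0.199 over 6943 features and at 0.0440 over 6744 without chromosomes X and Y, so the numbers were not taken as pairs. With a replicate block 4 features were called, 2 outside the neighbours, and 6 passed adjusted p with 0 lower, Lars2 being the added one. With the replicate block there were 11 tuft cell genes, 15 cell cycle genes, 8 immediate early genes, 7 core splicing factors and 1 feature differing between the lines.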
